A study of Mus musculus with 43 samples.

Results

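The 10 genes described here are the Hippo pathway core and its TEAD factors: the coactivators Yap1 and Wwtr1 (the gene of TAZ), the DNA-binding factors Tead1 to Tead4, the kinases Stk3 (MST2), Lats1 and Lats2, and the TEAD cofactor Vgll4. They were chosen by symbol, and all 10 were found among the 23951 genes of the expression tables and the 54307 gene rows of the single-cell matrices. Bulk RNA-seq covered primary intestinal organoids of wild-type C57BL/6 mice, 3 libraries per group, as FPKM (fragments per kilobase of transcript, scaled to library size). The libraries form 6 groups, vehicle and TGFB1 in each of 3 conditions. D7 non-IR organoids received no radiation and were harvested on day 7. D7 IR and D11 organoids were both irradiated with 4 Gy on day 4 and were harvested on days 7 and 11. Treatment was 2 ng/mL TGFB1 or vehicle for 24 h from day 6, so the D11 organoids were collected after the cytokine pulse had ended. Single-cell RNA-seq covered irradiated organoids at day 8 (4 Gy on day 4) after 6, 15 or 24 h of 1 ng/mL TGFB1 or after vehicle, called 0 h, with 1 library each. It also covered crypt cells sorted for Ki67-RFP, a reporter of the proliferation protein Ki67 (Mki67tm1.1Cle/J mice), from 1 non-irradiated littermate and from 2 libraries taken 56 h after 12 Gy to the whole body. A finer strainer was used for the non-irradiated crypts than for the irradiated ones, so preparation and irradiation cannot be told apart there.

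The Hippo pathway is a kinase cascade. STK3 and its paralog STK4 activate LATS1 and LATS2, which phosphorylate YAP and TAZ and keep them out of the nucleus. Nuclear YAP and TAZ have no DNA-binding domain of their own and act through TEAD proteins, while VGLL4 competes with them for TEAD. In the intestine the pathway is best known for its part in regeneration, where YAP is required after irradiation injury. RNA levels do not show kinase activity or where the proteins sit in the cell.

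The letters a TEAD protein is known to bind, CATTCC or GGAATG on the other strand, were searched in the 250 bases upstream of each RefSeq start (build GRCm38.p6). The RefSeq table held 11 such starts for 7 of the 10 members (Tead1, Tead4 and Stk3 had no entry). The letters occurred upstream of 4 of these 7 members, Yap1, Wwtr1, Tead3 and Vgll4, and were absent from the windows of Tead2, Lats1 and Lats2. Among all 27025 genes with a window there 14.4% held them in at least 1 window, and among all 32851 windows 12.6% did. The palindromic SMAD letters GTCTAGAC (in 0.167% of all windows) and the AP-1 letters TGANTCA (6.75%) were in none of the 11 windows. The shorter SMAD letters CAGAC or GTCTG (42.2%) were in 2 windows, those of Yap1 and Lats1. The first 3 sequences below are shown because they hold the TEAD letters, in capitals, and belong to both coactivators and to the competitor. The window of Tead2, which rose with TGFB1 in all 3 conditions, is shown as one without them. They are written 5′ to 3′ on the strand of the gene: Yap1 at chr9:8004597-8004846 (minus strand), Wwtr1 at chr3:57575911-57576160 (minus), Vgll4 at chr6:114969204-114969453 (minus) and Tead2 at chr7:45215542-45215791 (plus).
Yap1: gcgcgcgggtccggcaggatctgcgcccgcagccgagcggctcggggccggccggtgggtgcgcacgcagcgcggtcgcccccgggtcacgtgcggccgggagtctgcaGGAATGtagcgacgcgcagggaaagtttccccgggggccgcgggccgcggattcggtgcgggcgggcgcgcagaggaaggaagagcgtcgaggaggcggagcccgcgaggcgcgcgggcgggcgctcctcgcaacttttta
Wwtr1: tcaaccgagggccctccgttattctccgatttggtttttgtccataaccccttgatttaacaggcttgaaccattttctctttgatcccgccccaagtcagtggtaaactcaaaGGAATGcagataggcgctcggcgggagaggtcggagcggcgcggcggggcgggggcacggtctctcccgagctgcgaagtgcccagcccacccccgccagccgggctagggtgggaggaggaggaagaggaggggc
Vgll4: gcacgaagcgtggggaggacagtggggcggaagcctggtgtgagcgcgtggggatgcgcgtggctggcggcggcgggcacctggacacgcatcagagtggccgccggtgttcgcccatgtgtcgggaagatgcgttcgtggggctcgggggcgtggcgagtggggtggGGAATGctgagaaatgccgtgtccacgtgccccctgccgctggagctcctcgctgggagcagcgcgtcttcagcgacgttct
Tead2: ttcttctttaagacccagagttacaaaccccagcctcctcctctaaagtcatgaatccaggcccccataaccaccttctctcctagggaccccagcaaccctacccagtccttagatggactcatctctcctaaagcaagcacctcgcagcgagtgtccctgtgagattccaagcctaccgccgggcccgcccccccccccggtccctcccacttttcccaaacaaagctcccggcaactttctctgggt
The letters lie at −141, −136 and −82 relative to the start of Yap1, Wwtr1 and Vgll4. A match is a description of these letters, not a bound site.

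The libraries carried the RNA of an epithelium. All 7 epithelial markers were above 1 FPKM in every group, while the summed FPKM of 9 immune markers ran from 0.581 to 2.74, of 8 mesenchymal markers from 0.437 to 4.86 and of 4 endothelial markers from 0 to 0.228. Emcn was listed at 0 in every group, and Ptprc did not pass a group mean of 0.0617 FPKM. The mesenchymal sum was highest with TGFB1 in D7 IR (3.17 to 4.86, against 0.637 to 0.872 with vehicle), where Acta2 held most of it (3.22 FPKM). Col1a1 was 0.397 FPKM there against 0.00498 with vehicle, and Pdgfrb 0.1155 against 0.282. Col1a2 and Pdgfra were at most 0.0271 FPKM in that group, and Dcn, Lum and Col3a1 were listed at 0. The summed marker RNA of epithelial cell types differed between groups. The summed FPKM of 10 enterocyte markers was 3296 to 3441 in D7 non-IR vehicle libraries, 14070 to 15040 in D7 IR vehicle and 3348 to 5991 in D11 vehicle. With TGFB1 it was 1487 to 1614 in D7 non-IR, 20880 to 21720 in D7 IR and 2151 to 2536 at D11, so it was higher than with vehicle in D7 IR and lower in the other conditions. The 7 stem markers summed to 968 to 1002 in D7 IR vehicle libraries and 436 to 539 with TGFB1, and 8 proliferation markers to 454 to 474 and 153 to 176. In such bulk samples fewer cells of a type and less RNA per cell cannot be told apart. The part of cell makeup in the member changes was not tested. Read depth is unknown for the FPKM libraries, whose values summed to 447728 to 621996. Nothing in the labels says that the 3 libraries of a group came from separate cultures, so p-values measure the spread between these libraries.

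In vehicle libraries of non-irradiated organoids Yap1 was the most abundant member, at 37.6 ± 1.56 FPKM (SD, n = 3). It was followed by Vgll4 (33.5 ± 0.735), Wwtr1 (18.5 ± 0.540), Lats1 (17.4 ± 0.546), Stk3 (15.7 ± 0.602), Tead3 (11.1 ± 0.480), Tead1 (10.8 ± 0.806), Tead2 (8.32 ± 0.713), Lats2 (2.93 ± 0.156) and Tead4 (1.26 ± 0.108 FPKM). All neighbours in this order were separated between libraries except Tead3 and Tead1, whose libraries overlapped. Yap1 also led in D7 IR vehicle and in D7 non-IR with TGFB1. At D11 with vehicle the libraries of Yap1 (33.2 ± 1.26 FPKM) and Vgll4 (32.4 ± 1.84) overlapped. In the irradiated TGFB1 groups Tead2 and Yap1 headed the order with overlapping libraries, at 37.6 ± 0.629 and 34.7 ± 2.51 FPKM in D7 IR and 42.7 ± 5.36 and 43.2 ± 1.45 FPKM at D11.

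**Figure D1:**
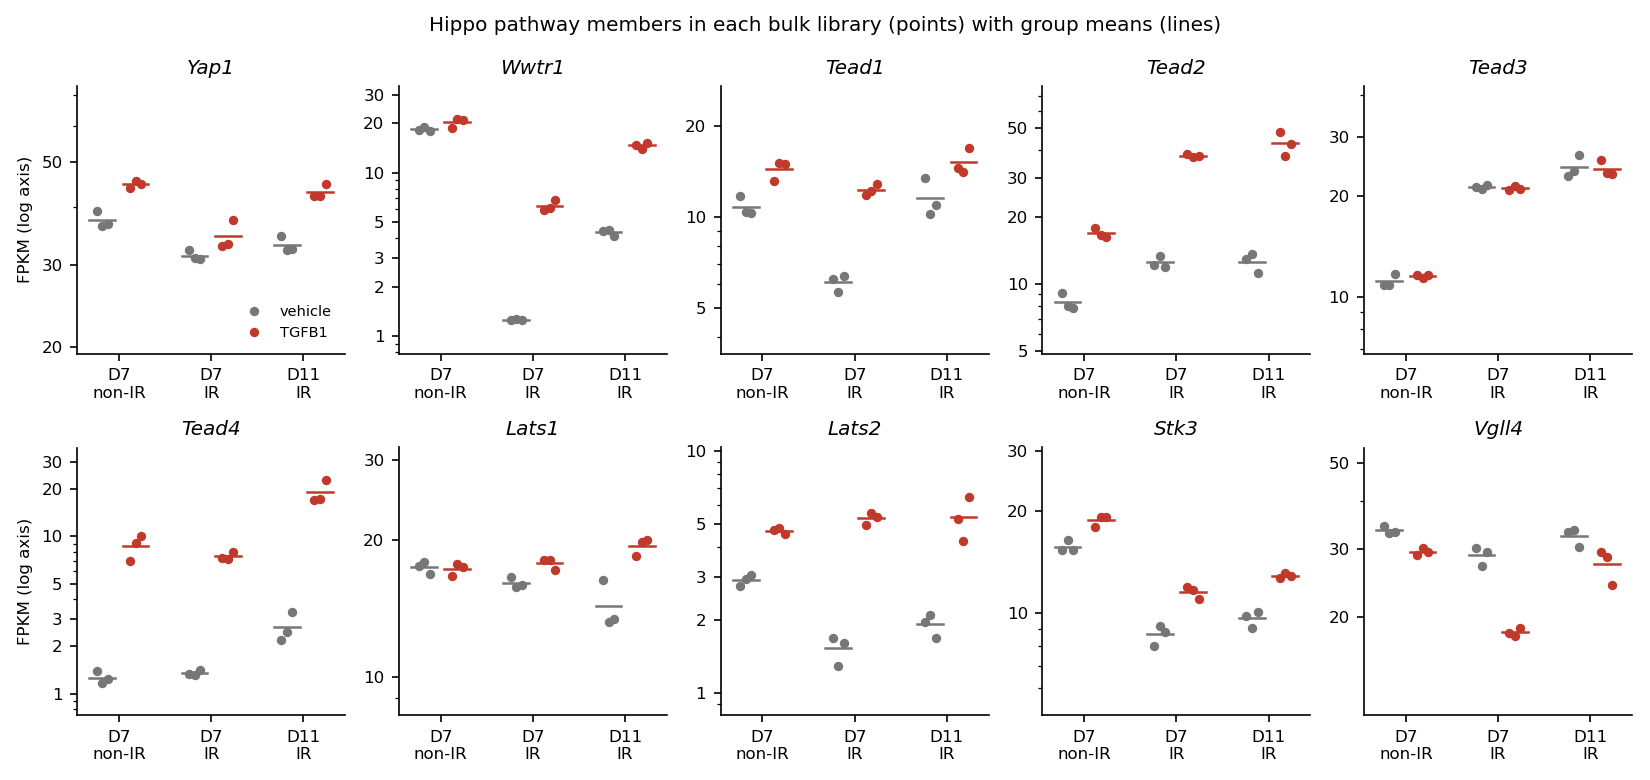
FPKM of the 10 members (log axes) in 18 bulk libraries, as points, by condition and treatment, with group means as lines. Wwtr1 is lowest in the D7 IR vehicle libraries (1.26 to 1.28 FPKM), and the Tead3 points of vehicle and TGFB1 overlap in each condition.

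Irradiation alone was examined as a comparison of levels between the vehicle libraries, since the tables of the conditions were normalized separately and no test was run on levels across them. Wwtr1 stood out. Its vehicle libraries held 18.3, 19.1 and 18.04 FPKM without irradiation and 1.27, 1.28 and 1.26 FPKM after it, so irradiated vehicle organoids at D7 had a mean 14.6-fold lower. At D11 the irradiated vehicle libraries held 4.37, 4.45 and 4.13 FPKM, 3.41-fold above D7 IR vehicle but still below all non-irradiated libraries. Wwtr1 was the only member past 2-fold with no overlap in either comparison (1 of 10 lower after irradiation, 1 of 10 higher at D11). The enterocyte marker sum was higher in D7 IR vehicle (14070 to 15040) than in the other 2 vehicle groups (3296 to 5991), and its part in the low Wwtr1 level was not tested. Of all genes 20.5% passed that rule after irradiation (9.87% higher and 10.6% lower), and 10.3% between the days (6.06% higher and 4.2% lower).

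The partner Yap1 differed far less, at 31.5 ± 0.739 FPKM in D7 IR vehicle against 37.6 ± 1.56 FPKM without irradiation, or 1.19-fold lower. The ratio of Wwtr1 to Yap1 within a library, which a factor common to a table cannot move, was 0.464, 0.522 and 0.490 without irradiation. In D7 IR vehicle libraries it was 0.0392, 0.0411 and 0.0405, and in D11 vehicle 0.126, 0.137 and 0.127. The 3 groups did not overlap, and the 2 comparisons run (irradiated against non-irradiated at D7, and D11 against D7 IR) each had an exact permutation p of 0.1, two-sided, the smallest that 3 against 3 libraries allow. Adjusted over the 33 ratio, share and sum comparisons of this kind it was 0.11 (Benjamini-Hochberg).

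The other members differed by less than 2-fold in these 2 comparisons of levels. Tead3 was 1.91-fold higher in D7 IR than in D7 non-IR vehicle (21.3 ± 0.288 against 11.1 ± 0.480 FPKM) and Tead2 1.505-fold higher (12.5 ± 0.790 against 8.32 ± 0.713). Lats2 was 1.91-fold lower (1.54 ± 0.210 against 2.93 ± 0.156 FPKM), Stk3 1.81-fold lower (8.66 ± 0.584 against 15.7 ± 0.602) and Tead1 1.77-fold lower (6.08 ± 0.387 against 10.8 ± 0.806). These groups did not overlap. Vgll4 (28.9 ± 1.599 FPKM after irradiation) and Lats1 (16.1 ± 0.447 FPKM) were 1.16-fold and 1.08-fold lower, and the Tead4 libraries overlapped (1.35 ± 0.0608 against 1.26 ± 0.108 FPKM). At 1.5-fold with no overlap, 6 members passed after irradiation, beside 45.0% of all genes, and 3 between the days, beside 24.9%. Without D7 IR vehicle replicate 1 the 2-fold count after irradiation was 2. Between the days it was 2 without D7 IR vehicle replicate 3 or D11 vehicle replicate 1, and 3 without D11 vehicle replicate 2.

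TGFB1 raised most members and lowered Vgll4. In non-irradiated organoids limma called 7 of 10 members higher and 1 lower (Benjamini-Hochberg adjusted p under 0.05 over all genes), where 33.3% of all genes were called higher and 34.9% lower. In D7 IR organoids 8 of 10 were called higher and 1 lower, where the shares of all genes were 35.8% and 39.7%. At D11 the member counts were again 8 higher and 1 lower, beside 32.3% and 31.6% of all genes. Changes from here on are of log2(FPKM + 1) unless given as fold of means, and the added 1 makes them smaller than folds of means for low genes. At 2-fold or more on that scale, 1 of 10 members was called higher in D7 non-IR (Tead4, beside 5.52% of all genes), while 4 of 10 passed in D7 IR and again at D11 (Wwtr1, Tead2, Tead4 and Lats2, beside 7.79% and 5.67%). By the fold of means, Tead2 in D7 non-IR (2.04-fold) and Tead1 in D7 IR (2.02-fold) lay past 2-fold as well. In the same order of conditions, the median log2 change of the members was 0.25, 0.64 and 0.40, against −0.02, −0.03 and 0.01 over all genes tested.

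**Figure D2:**
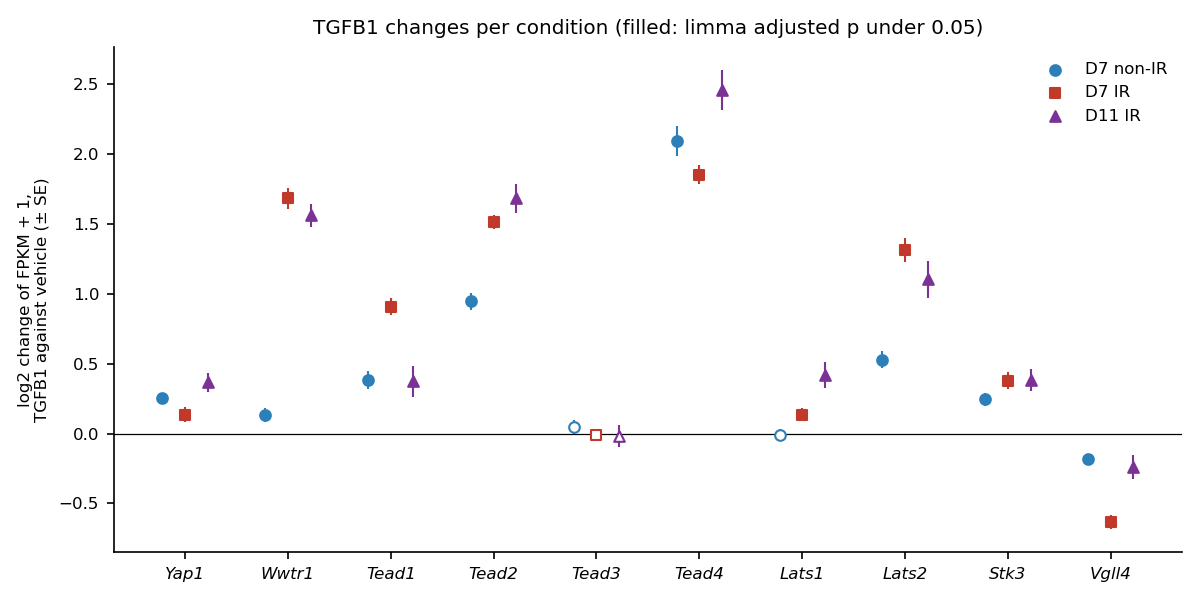
log2 change of FPKM + 1 with TGFB1 (y axis, ± SE from limma) for each member, in D7 non-IR (circles), D7 IR (squares) and D11 IR (triangles), filled where the adjusted p was under 0.05. Tead4 has the largest change in each condition, Wwtr1 lies near 0 in D7 non-IR only, and Tead3 is open in all 3.

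Of the 2 coactivators Wwtr1 had the larger response to TGFB1, and its response differed with irradiation. In D7 IR organoids Wwtr1 held 5.90, 6.11 and 6.83 FPKM with TGFB1 against 1.27, 1.28 and 1.26 with vehicle. This was a 4.96-fold rise of the mean (log2 change 1.68 ± 0.07 (SE), limma adjusted p 1.03e-08). At D11 it held 14.8, 13.98 and 15.3 FPKM against 4.37, 4.45 and 4.13, a 3.40-fold rise (1.56 ± 0.08, limma adjusted p 3.16e-07). All TGFB1 libraries lay above all vehicle libraries in both conditions, and the D11 TGFB1 libraries stayed below every non-irradiated library, across separately normalized tables. The summed FPKM of 10 regenerative markers went the same way, from 679 to 713 with vehicle to 7597 to 8323 with TGFB1 in D7 IR, but it was also 5504 to 5832 with TGFB1 in D7 non-IR against 812 to 868 with vehicle. Its part in the rise was not tested.

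In non-irradiated organoids Wwtr1 was 18.8, 21.2 and 21.1 FPKM with TGFB1 and the groups overlapped. Its change of 0.13 ± 0.05 passed narrowly (limma adjusted p 0.0408). The call was lost without vehicle replicate 1 (adjusted p 0.0951), vehicle replicate 3 (0.117), TGFB1 replicate 2 (0.131) or TGFB1 replicate 3 (0.132), and under 3 of the other settings tried. The difference between the irradiated and the non-irradiated response was itself tested over the 12 D7 libraries, and Wwtr1 had an interaction of 1.55 ± 0.08 (limma adjusted p 3.40e-09). That was the largest of the 10 members. The response at D11 did not pass a test of difference from that at D7 IR (−0.12 ± 0.10, limma adjusted p 0.300), although with a pseudocount of 0.1 FPKM it did (−0.48, adjusted p 0.00307).

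Yap1 rose by less. Its libraries held 39.3, 36.5 and 36.8 FPKM with vehicle and 44.1, 45.7 and 44.9 with TGFB1 in D7 non-IR (0.25 ± 0.04, limma adjusted p 0.000204). At D11 they held 34.7, 32.4 and 32.6 against 42.3, 42.4 and 44.8 FPKM (0.37 ± 0.07, limma adjusted p 0.000999). In D7 IR they held 32.3, 31.1 and 31.0 against 33.1, 33.4 and 37.6 FPKM (0.13 ± 0.05, limma adjusted p 0.0401). That last call was lost without vehicle replicate 2 (adjusted p 0.104), vehicle replicate 3 (0.105) or TGFB1 replicate 3 (0.128). With no filter on low values (limma adjusted p 0.0733) or with a replicate block (0.0519) it was lost as well. The ratio of Wwtr1 to Yap1 went from 0.0403 ± 0.000979 to 0.181 ± 0.00258 with TGFB1 in D7 IR and from 0.130 ± 0.00623 to 0.340 ± 0.00940 at D11 (SD, n = 3). In D7 non-IR it was 0.492 ± 0.0288 and 0.453 ± 0.0225. The groups did not overlap in the irradiated conditions (exact permutation p 0.1, the smallest possible, adjusted 0.11) and overlapped in D7 non-IR (exact permutation p 0.2, adjusted 0.206).

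The 4 TEAD factors responded unequally. Tead4 rose most. It held 1.38, 1.17 and 1.24 FPKM with vehicle and 7.01, 9.08 and 10.1 with TGFB1 in D7 non-IR, a 6.91-fold rise of the mean (2.09 ± 0.11, limma adjusted p 4.11e-08). In D7 IR it held 1.33, 1.30 and 1.42 against 7.34, 7.15 and 7.94 FPKM (5.54-fold, 1.85 ± 0.07, limma adjusted p 3.50e-09). At D11 it held 2.21, 2.47 and 3.33 against 17.1, 17.3 and 23.0 FPKM (7.18-fold, 2.46 ± 0.14, limma adjusted p 6.01e-07). No vehicle library reached any TGFB1 library of its condition, and the least abundant TEAD factor of the vehicle organoids passed Tead1 at D11. The irradiation by TGFB1 interaction of Tead4 did not pass the test (−0.24 ± 0.14, limma adjusted p 0.154), except without D7 non-IR TGFB1 replicate 1 (−0.38, adjusted p 0.00697), while the day by TGFB1 interaction did (0.61 ± 0.17, limma adjusted p 0.00643). With a pseudocount of 0.1 FPKM the latter had an adjusted p of 0.0876.

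Tead2 was the next to rise. Its libraries held 9.14, 7.99 and 7.83 FPKM with vehicle and 17.9, 16.6 and 16.3 with TGFB1 in D7 non-IR (2.04-fold, 0.95 ± 0.06, limma adjusted p 1.83e-07). In D7 IR they held 12.2, 13.4 and 12.0 against 38.2, 37.0 and 37.5 FPKM (3.00-fold, 1.51 ± 0.05, limma adjusted p 1.54e-09). At D11 they held 13.0, 13.7 and 11.2 against 48.3, 37.6 and 42.3 FPKM (3.39-fold, 1.68 ± 0.11, limma adjusted p 9.26e-07). The response was larger after irradiation, with an interaction of 0.57 ± 0.08 (limma adjusted p 5.28e-05).

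Tead1 passed 2-fold of means in D7 IR only, from 6.23, 5.64 and 6.37 FPKM to 11.8, 12.1 and 12.8 (2.02-fold, 0.91 ± 0.06, limma adjusted p 2.20e-07). In D7 non-IR it rose to 14.4 ± 1.08 from 10.8 ± 0.806 FPKM (0.38 ± 0.07, limma adjusted p 0.000388). At D11 it rose from 11.5 ± 1.68 to 15.2 ± 1.55 FPKM (0.37 ± 0.11, limma adjusted p 0.0141). The D11 call was lost without vehicle replicate 2 (adjusted p 0.0592) or TGFB1 replicate 3 (0.0554). The response in D7 IR differed from that in D7 non-IR (interaction 0.52 ± 0.09, limma adjusted p 0.000276) and from that at D11 (−0.53 ± 0.13, limma adjusted p 0.00293). Its vehicle level was lowest in D7 IR, across tables that were normalized separately.

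Tead3 was not called in any condition. With vehicle and TGFB1 it held 11.1 ± 0.480 and 11.5 ± 0.120 FPKM in D7 non-IR (limma adjusted p 0.395), 21.3 ± 0.288 and 21.1 ± 0.278 in D7 IR (0.771). At D11 it held 24.4 ± 1.90 and 24.0 ± 1.30 FPKM (limma adjusted p 0.857). Its libraries overlapped in each condition, and its log2 changes had standard errors of 0.05, 0.04 and 0.08.

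The makeup of the family differed with TGFB1, as shares of the summed Tead1 to Tead4 FPKM. Tead3 held 35.4 ± 2.45% of it with vehicle in D7 non-IR, 51.6 ± 0.762% in D7 IR and 47.6 ± 3.31% at D11. With TGFB1 it held 22.4 ± 0.849%, 26.9 ± 0.564% and 23.8 ± 1.66%. Tead2 went from 26.4 ± 1.21 to 32.9 ± 2.80%, from 30.4 ± 1.85 to 47.9 ± 0.821% and from 24.7 ± 2.92 to 42.2 ± 3.14%. Tead4 went from 4.01 ± 0.167 to 16.9 ± 2.54%, from 3.27 ± 0.144 to 9.54 ± 0.420% and from 5.205 ± 1.08 to 18.9 ± 2.82%. The summed FPKM rose from 31.5 ± 1.40 to 51.6 ± 1.74, from 41.2 ± 0.198 to 78.4 ± 0.828 and from 51.2 ± 0.958 to 101 ± 7.62. None of these group pairs overlapped, and each had the exact permutation p of 0.1 that is the smallest possible (adjusted 0.11). The share of Tead1 overlapped between treatments in D7 IR (14.7 ± 0.967 and 15.6 ± 0.531%, exact permutation p 0.3).

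**Figure D3:**
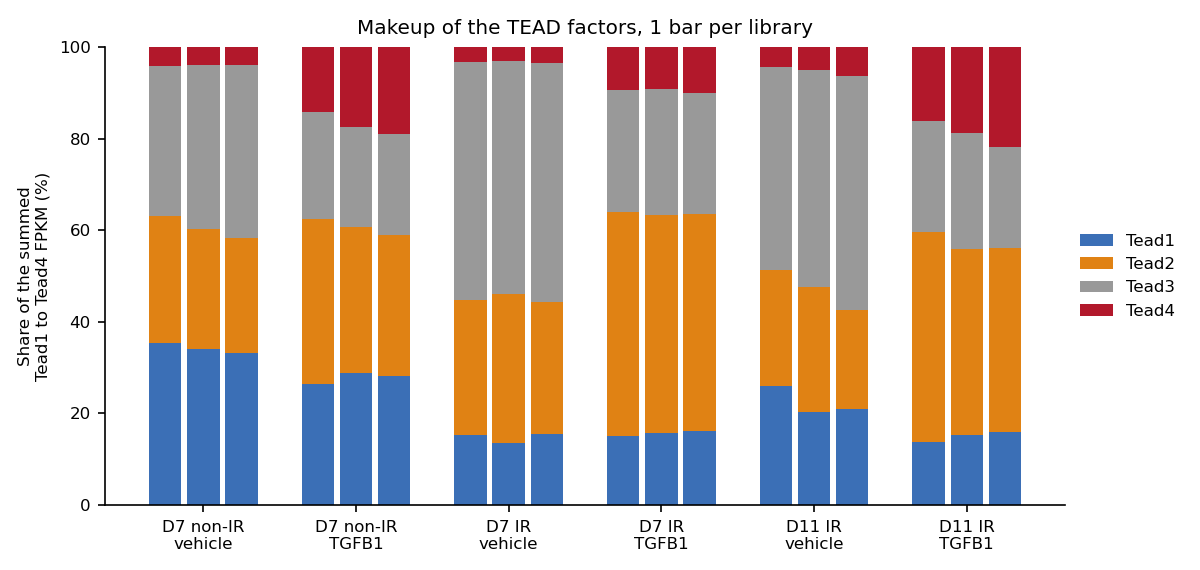
Share of each TEAD gene in the summed Tead1 to Tead4 FPKM (y axis, percent), with 1 stacked bar per bulk library in 6 groups of 3. Tead3 takes the largest share in D7 IR and D11 vehicle libraries and Tead2 in the TGFB1 libraries of all 3 conditions.

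Of the kinases Lats2, itself a known target of YAP and TAZ, rose most. It held 2.76, 2.96 and 3.07 FPKM with vehicle and 4.71, 4.78 and 4.52 with TGFB1 in D7 non-IR (1.59-fold, 0.53 ± 0.06, limma adjusted p 2.40e-05). In D7 IR it held 1.69, 1.30 and 1.62 against 4.96, 5.54 and 5.35 FPKM (3.44-fold, 1.31 ± 0.08, limma adjusted p 1.55e-07). At D11 it held 1.96, 2.11 and 1.69 against 5.23, 4.26 and 6.46 FPKM (2.77-fold, 1.102 ± 0.14, limma adjusted p 7.32e-05). Its TGFB1 libraries lay between 4.26 and 6.46 FPKM in all 3 separately normalized tables, above every vehicle library. The irradiated response exceeded the non-irradiated one (interaction 0.78 ± 0.10, limma adjusted p 1.50e-05).

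Lats1, the more abundant LATS kinase, showed smaller differences. It was 17.4 ± 0.546 and 17.3 ± 0.554 FPKM in D7 non-IR (limma adjusted p 0.838), 16.1 ± 0.447 and 17.8 ± 0.530 in D7 IR (0.13 ± 0.05, limma adjusted p 0.0222) and 14.3 ± 1.78 and 19.4 ± 0.820 at D11 (0.42 ± 0.09, limma adjusted p 0.00294). The D7 IR call was lost without vehicle replicate 2 (adjusted p 0.0709), vehicle replicate 3 (0.0669), TGFB1 replicate 1 (0.0635) or TGFB1 replicate 2 (0.0629). With all 18 libraries in one fit it was lost as well (limma adjusted p 0.0702). The ratio of Lats2 to Lats1 went from 0.168 ± 0.0126 to 0.270 ± 0.0121, from 0.0952 ± 0.0112 to 0.297 ± 0.0209 and from 0.135 ± 0.0213 to 0.274 ± 0.0544 (exact permutation p 0.1 each, adjusted 0.11). Stk3 rose in every condition, from 15.7 ± 0.602 to 18.8 ± 0.741 FPKM (0.24 ± 0.05, limma adjusted p 0.000826), from 8.66 ± 0.584 to 11.5 ± 0.473 (0.38 ± 0.06, limma adjusted p 0.000210) and from 9.67 ± 0.547 to 12.9 ± 0.198 (0.38 ± 0.08, limma adjusted p 0.00165). Neither interaction of Stk3 passed the test.

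Vgll4 was the 1 member that fell. Its libraries held 34.3, 32.9 and 33.3 FPKM with vehicle and 28.9, 30.1 and 29.4 with TGFB1 in D7 non-IR (−0.18 ± 0.04, limma adjusted p 0.00131). In D7 IR they held 30.2, 27.1 and 29.4 against 18.2, 17.8 and 18.7 FPKM, 1.59-fold lower (−0.64 ± 0.05, limma adjusted p 7.72e-07). At D11 they held 33.3, 33.7 and 30.3 against 29.4, 28.6 and 24.2 FPKM (−0.24 ± 0.09, limma adjusted p 0.0367). The groups did not overlap in any condition. The fall in D7 IR was larger than in D7 non-IR (interaction −0.46 ± 0.06, limma adjusted p 1.99e-05) and than at D11 (0.40 ± 0.10, limma adjusted p 0.00385). The D11 call was lost without vehicle replicate 1 (adjusted p 0.0746), vehicle replicate 2 (0.110), TGFB1 replicate 2 (0.0528) or TGFB1 replicate 3 (0.140). With no filter on low values it was lost as well (limma adjusted p 0.0607).

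Over all members, 5 of 10 had a response that differed between irradiated and non-irradiated organoids (4 higher and 1 lower, beside 25.3% and 27.8% of all genes, 53.1% in all). Those were Wwtr1, Tead1, Tead2, Lats2 and Vgll4. Between the days 5 of 10 differed as well (4 higher and 1 lower, beside 31.5% and 33% of all genes, 64.5% in all): Yap1 (0.23 ± 0.08, limma adjusted p 0.0230), Lats1 (0.28 ± 0.10, limma adjusted p 0.0276), Tead1, Tead4 and Vgll4. The day count was 3 without D7 IR vehicle replicate 1 or without D11 TGFB1 replicate 3, where Yap1 and Lats1 were no longer called (adjusted p 0.0582 and 0.0639, and 0.0532 and 0.0553). Yap1 was also lost without D7 IR TGFB1 replicate 1 (0.0625) or 2 (0.0604), and Lats1 without D7 IR TGFB1 replicate 3 (0.0620), D11 vehicle replicate 2 (0.0694) or 3 (0.0615), or D11 TGFB1 replicate 2 (0.0545). Neither count of 5 members exceeded the share of all genes, so these counts do not set the members apart. The D7 vehicle and TGFB1 libraries of the irradiated condition enter both interactions. The enterocyte marker sum was higher with TGFB1 in D7 IR and lower in D7 non-IR and at D11, and its part in the interactions was not tested.

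The rest of the pathway was read from a list of 30 other Hippo genes. In D7 non-IR 18 of the 25 that passed the filter were called higher and 2 lower, in D7 IR 20 and 2 of 25, and at D11 19 and 2 of 26. In the same order of conditions, the shares of all genes were 33.3% higher and 34.9% lower, 35.8% and 39.7%, and 32.3% and 31.6%. The median log2 change of the list was 0.31, 0.45 and 0.72, against −0.02, −0.03 and 0.01 over all genes. Amotl1 and Vgll3, described next, passed the minimum mean of 1 FPKM only through their TGFB1 libraries. So did Ptpn14 in each condition and Frmd6 at D11. The places of these genes in the counts and medians of the list are no support. Ajuba, a LIM protein that inhibits LATS, went from 13.1 ± 0.540 to 46.5 ± 1.27 FPKM, from 8.13 ± 0.0960 to 55.7 ± 1.43 and from 10.2 ± 1.15 to 60.2 ± 5.38 (log2 changes 1.75, 2.64 and 2.45, limma adjusted p at most 6.79e-08). Amotl1, an angiomotin that binds YAP, went from 0.453 ± 0.0331 to 5.07 ± 0.439, from 0.464 ± 0.0397 to 4.39 ± 0.309 and from 0.247 ± 0.0819 to 5.74 ± 0.661 FPKM (2.06, 1.88 and 2.43, limma adjusted p at most 1.82e-07). Stk38l, an NDR kinase, had the third largest change among the risen genes in D7 non-IR (7.40 ± 0.532 to 16.4 ± 0.391 FPKM, 1.05, limma adjusted p 3.03e-08). Vgll3, a TEAD cofactor, came between Ajuba and Amotl1 in D7 IR (0.247 ± 0.0670 to 4.61 ± 0.295 FPKM, 2.17, limma adjusted p 5.00e-09) and had the largest change of the list at D11 (0.144 ± 0.121 to 7.47 ± 1.67 FPKM, 2.87, limma adjusted p 3.10e-07).

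The falls were small. Nf2, the upstream activator Merlin, went from 20.8 ± 0.142 to 16.01 ± 0.168 FPKM in D7 non-IR (−0.36, limma adjusted p 1.05e-05), from 27.3 ± 0.383 to 20.01 ± 0.194 in D7 IR (−0.43, limma adjusted p 2.87e-06) and from 24.0 ± 1.87 to 20.6 ± 1.35 at D11 (−0.21, limma adjusted p 0.0479). Limd1, another LIM protein, fell in both D7 conditions (−0.21 and −0.19, limma adjusted p 0.00104 and 0.00154) and rose at D11 (0.31, limma adjusted p 0.00870). Map4k2, a kinase upstream of LATS, fell at D11 (3.36 ± 0.451 to 2.36 ± 0.215 FPKM, −0.37, limma adjusted p 0.0151).

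YAP and TAZ have known target genes. Of a list of 21, 14 of the 15 tested were called higher with TGFB1 in D7 non-IR (1 lower), 15 of 15 in D7 IR and 9 of 14 at D11 (2 lower). Of all genes 33.3%, 35.8% and 32.3% were called higher in these conditions, and 34.9%, 39.7% and 31.6% lower. Nt5e (both D7 conditions), Ptpn14 (each condition), Igfbp3 (D7 IR and D11) and Ankrd1 (D11) passed the minimum mean only through their TGFB1 libraries. Their places in these counts are no support, and Amotl2 and Ptpn14 stand in both lists. The list's median log2 change was 0.79, 1.201 and 1.04, against −0.02, −0.03 and 0.01 over all genes. Both lists were chosen with earlier results of these data known, and several target genes also answer to TGFB1 through SMAD proteins. Ctgf, a secreted matrix protein, went from 8.66 to 178 FPKM in D7 non-IR, from 1.12 to 12.4 in D7 IR and from 1.07 to 34.4 at D11 (log2 changes 4.22, 2.68 and 4.09). Cyr61, its relative, went from 19.5 to 77.3, from 6.93 to 81.4 and from 9.81 to 35.4 FPKM (1.93, 3.38 and 1.76). Ankrd1, a nuclear repeat protein, went from 2.78 to 4.39, from 1.31 to 4.32 and from 0.707 to 14.4 FPKM (0.52, 1.201 and 3.196). Amotl2, an angiomotin, went from 5.95 to 10.7, from 3.21 to 12.3 and from 4.73 to 14.1 FPKM (0.75, 1.66 and 1.38). These 12 changes had limma adjusted p of at most 0.0122. Vehicle levels of Ctgf and Cyr61 were, like those of Wwtr1, lower in both irradiated conditions than without irradiation, across separately normalized tables. Ctgf stayed near its D7 IR level at D11, whereas Cyr61 (9.81 against 6.93 FPKM) and Wwtr1 (3.41-fold) were higher at D11.

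Several members varied together across libraries. With log2(FPKM + 1) centred within each condition, Lats2 and Tead2 had a Pearson r of 0.965 over 18 libraries, Tead2 and Tead4 0.955, and Lats2 and Wwtr1 0.954, while Tead1 and Vgll4 had −0.910. The points share treatments and tables. Tead3 had values between −0.395 (with Lats1) and 0.0701 (with Tead4). By the same measure the genes most like Wwtr1, out of 11473, were Ptp4a2 (0.983), Cmtm3 (0.982) and Gpd2 (0.982). Those most like Tead4 were Cd9 (0.995), Ckap4 (0.994) and Slc4a11 (0.994), those most like Lats2 included Wwc2 (0.989) and Slc6a9 (0.984), and those most like Vgll4 were Slbp (0.973), Eif2a (0.967) and C1qbp (0.964).

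Single cells gave the time course in irradiated organoids. After filtering, the 0, 6, 15 and 24 h libraries held 2932, 4283, 2890 and 2218 cells, and at most 1 cell barcode was shared by any 2 of the 7 libraries. Levels are counts of UMIs of a gene scaled to the UMI total of the library (CPM, counts per 1e6), with 95% Poisson intervals that cover counting error only. They are not scaled to gene length, so they are compared within a gene and not between genes. With 1 library per time there is no test. Counts are of members with a mean of at least 5 CPM over the libraries compared. At 1.5-fold or more, 0 of 7 members differed at 6 h (beside 5.26% of all genes, 3.7% higher and 1.56% lower). At 15 h 2 of 7 were higher, Tead1 and Tead2 (beside 12.8%, 7.65% higher and 5.11% lower). At 24 h 3 of 8 were higher, Tead1, Tead2 and Lats2 (beside 18.8%, 12.0% higher and 6.79% lower). Of these, Lats2 passed the minimum only through its 24 h library, so its place in the count is no support. At 2-fold the 15 h count was 0. The means of Wwtr1 and Tead4 with 0 h were below the minimum at each time, although Wwtr1 alone passed 5 CPM at 24 h, and both are given as levels.

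Tead2 was 8.12 CPM at 0 h (7.08 to 9.26), 8.98 at 6 h (7.97 to 10.1), 15.3 at 15 h (13.8 to 16.8) and 22.9 at 24 h (21.3 to 24.7), so the difference appeared between 6 and 15 h. Tead1 was 19.7, 25.5, 33.2 and 40.3 CPM, already 1.29-fold (1.16 to 1.45) above 0 h at 6 h. Lats2 was 2.94, 4.29, 6.71 and 9.29 CPM, 3.16-fold (2.47 to 4.12) higher at 24 h. These 3 genes were higher at each later time.

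Wwtr1 rested on 48, 76, 127 and 230 UMIs, or 1.75 (1.29 to 2.33), 2.34 (1.85 to 2.93), 4.83 (4.02 to 5.75) and 7.51 CPM (6.57 to 8.55). Tead4 rested on 11, 24, 41 and 81 UMIs, or 0.402, 0.740, 1.56 and 2.65 CPM, 6.58-fold (3.49 to 13.7) higher at 24 h than at 0 h. Both followed the direction of the bulk D7 IR libraries, which had 2 ng/mL in place of 1 ng/mL and were collected a day earlier. The remaining 5 members stayed within 1.5-fold of 0 h at all times. Yap1 was 56.5, 68.0, 62.3 and 62.6 CPM, Lats1 49.2, 48.7, 45.1 and 44.7, Stk3 9.60, 9.66, 11.2 and 13.2, Tead3 12.2, 12.4, 13.7 and 14.5, and Vgll4 15.0, 13.0, 13.6 and 14.7 CPM. The Vgll4 level at 24 h was 0.976 of that at 0 h (0.851 to 1.12), beside the 1.59-fold fall in bulk D7 IR libraries.

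**Figure D4:**
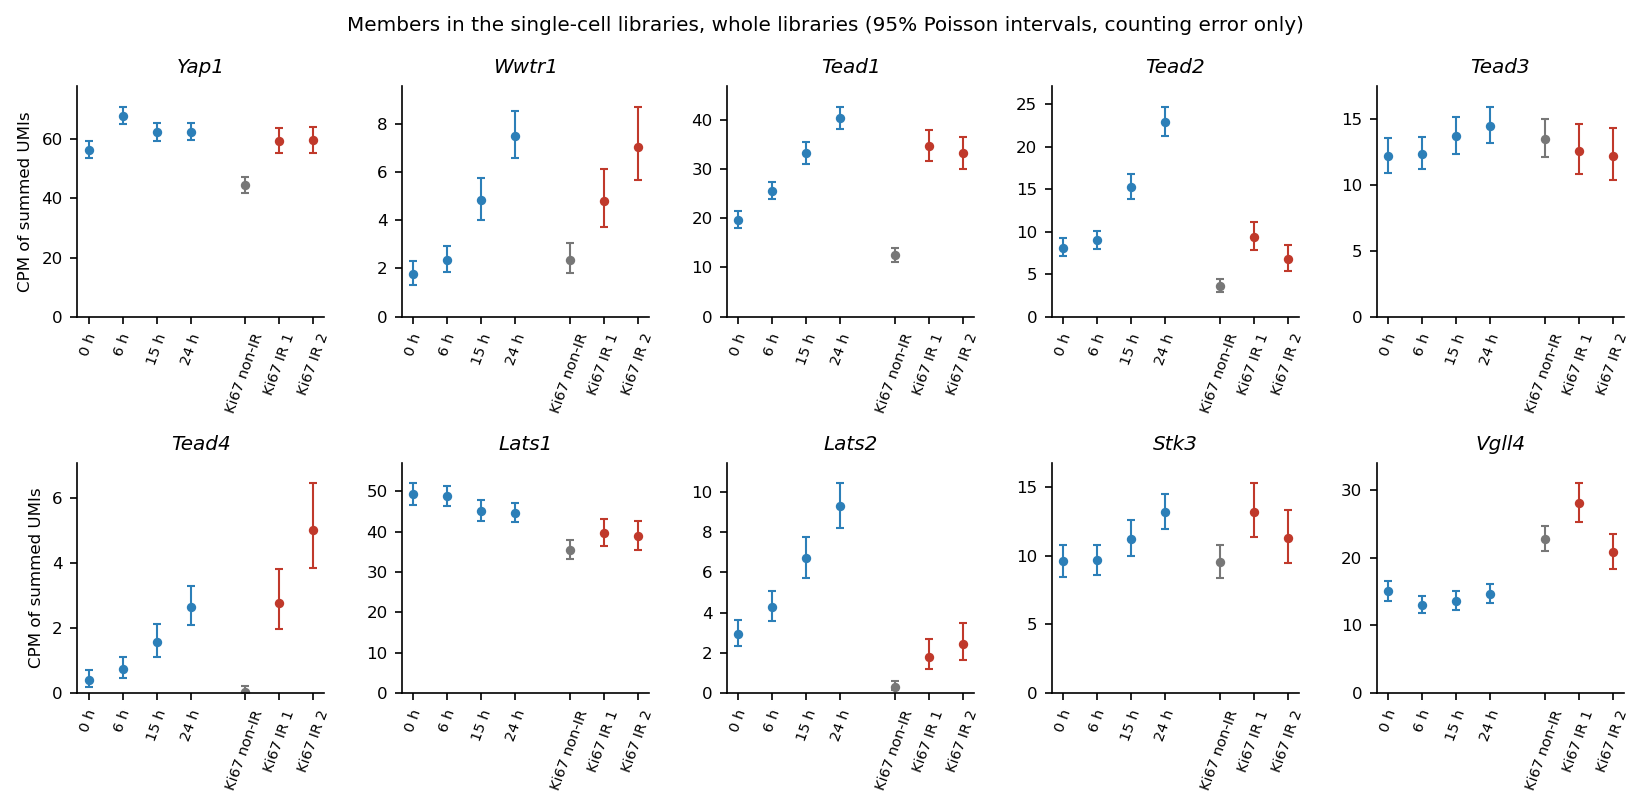
CPM of summed UMIs (y axis, 95% Poisson intervals) of each member in 4 organoid libraries (blue) and in the Ki67-RFP libraries, non-irradiated (grey) and irradiated (red). Wwtr1, Tead1, Tead2, Tead4 and Lats2 climb from 0 to 24 h, and Tead4 is almost absent (1 UMI) from the non-irradiated Ki67-RFP library.

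Cells of the organoids were clustered without the members, the other Hippo genes and the targets, and clusters took a class name from marker lists. Stem-like, proliferation-like, enterocyte-like and regenerative-like classes were named. The 10 leading genes of the last were Anxa1, Anxa8, Pyy, Cwh43, Ly6d, Il1rn, Ly6a, Myof, Ptgs2 and Adam8. Of these, Pyy is a hormone gene and not a listed regenerative marker. Unnamed clusters held 17.3, 24.1, 38.0 and 34.7% of cells at 0, 6, 15 and 24 h. A further 5.25, 8.73 and 9.13% at 0, 6 and 15 h and 443 of 2218 cells at 24 h lay in clusters kept unnamed after their leading genes, pseudogenes and small RNAs, were seen. One more cluster was kept unnamed in the same way: its stem markers were raised, but its 10 leading genes were mostly S-phase genes such as Ccne2, Mcm3 and Cdc6. It held 570, 506, 67 and 10 cells and is called the S-phase cluster here. None of its leading genes was a listed stem marker. Both enterocyte-like clusters, which kept their name, likewise had no listed enterocyte marker among their 10 leading genes. The stem-like cells form 1 cluster, led by Cym, Fstl1 and Nkd1, with 42, 230, 424 and 357 cells, so it has no value at 0 h, where it is under the minimum of 50 cells. The enterocyte-like share was 37.2, 27.9, 19.3 and 10.3%, and the regenerative-like share 0.136, 0.584, 4.26 and 10.7%, so whole-library levels mix makeup and levels within classes.

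Among the named classes Wwtr1 was lowest in enterocyte-like cells. At 0 h it was 2.55 CPM (1.396 to 4.29) in the S-phase cluster, 2.37 (1.35 to 3.85) in proliferation-like cells and 0.107 (1 UMI) in enterocyte-like cells. In stem-like cells it was 7.83 CPM at 6 h (11 UMIs) and 10.4 (7.28 to 14.4) at 15 h. At 24 h it was 13.7 CPM (10.7 to 17.3) in stem-like, 11.9 (8.60 to 16.1) in proliferation-like and 20.7 (16.7 to 25.3) in regenerative-like cells, and 0 UMIs were found in enterocyte-like cells (upper bound 1.07 CPM). The higher level at 24 h was present within the proliferation-like class as well as in the whole library, while the stem-like intervals at 6 and 24 h met. Proliferation-like cells came from 1 cluster, led by the mitosis genes Nusap1 and Ccnb1. Enterocyte-like cells came mostly from a cluster led by Ces1d and Akr1c14 at 0 h (858 of 1091) and from one led by Slc5a4b and Slc28a1 at 24 h (228 of 229).

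Tead4 set the regenerative-like cells apart. It was 16.6 CPM (10.7 to 24.4) there at 15 h and 9.68 (7.04 to 13.0) at 24 h, against 0.289 and 2.34 CPM in stem-like and 0.941 and 2.84 in proliferation-like cells at these times. At a leiden resolution of 1.0 the stem-like values were 0 and 0.773 CPM. The intervals of the regenerative-like cells did not meet those of the other named classes. These cells had a median of 10558 and 17214 UMIs at 15 and 24 h, above the library medians of 7805 and 10441. They numbered 4 and 25 at 0 and 6 h, under the minimum of 50 for a value. Doublets were not removed.

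Among named classes Tead2 was highest in stem-like cells, at 32.01, 42.7 and 61.7 CPM at 6, 15 and 24 h, although at 15 h the interval met that of regenerative-like cells. It was 23.0, 20.03 and 38.3 CPM in the S-phase cluster at 0, 6 and 15 h. It was 8.14, 10.1, 22.8 and 29.3 CPM in proliferation-like cells, at most 3.18 in enterocyte-like cells, and 35.9 and 39.0 in regenerative-like cells at 15 and 24 h. Tead1 followed the same contrast of crypt-type and enterocyte-like cells, with 42.7 and 64.8 CPM at 6 and 24 h in stem-like cells and 4.72 and 8.10 in enterocyte-like cells. Yap1 was spread more evenly, at 110 and 97.3 CPM in stem-like cells and 42.7 and 38.1 in enterocyte-like cells at these times. Lats2 had another pattern: at 0 h it was 4.72 CPM (3.43 to 6.34) in enterocyte-like cells, above the 0.740 (0.240 to 1.73) of proliferation-like cells, and at 24 h it was highest in regenerative-like cells (17.3, 13.6 to 21.4). That interval met those of stem-like (11.1 CPM, 8.42 to 14.4) and proliferation-like cells (10.2, 7.16 to 14.15) at 24 h. Vgll4 was lower in regenerative-like cells at 24 h (10.8 CPM) than in stem-like cells (26.5), and was 8.10 in enterocyte-like cells.

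**Figure D5:**
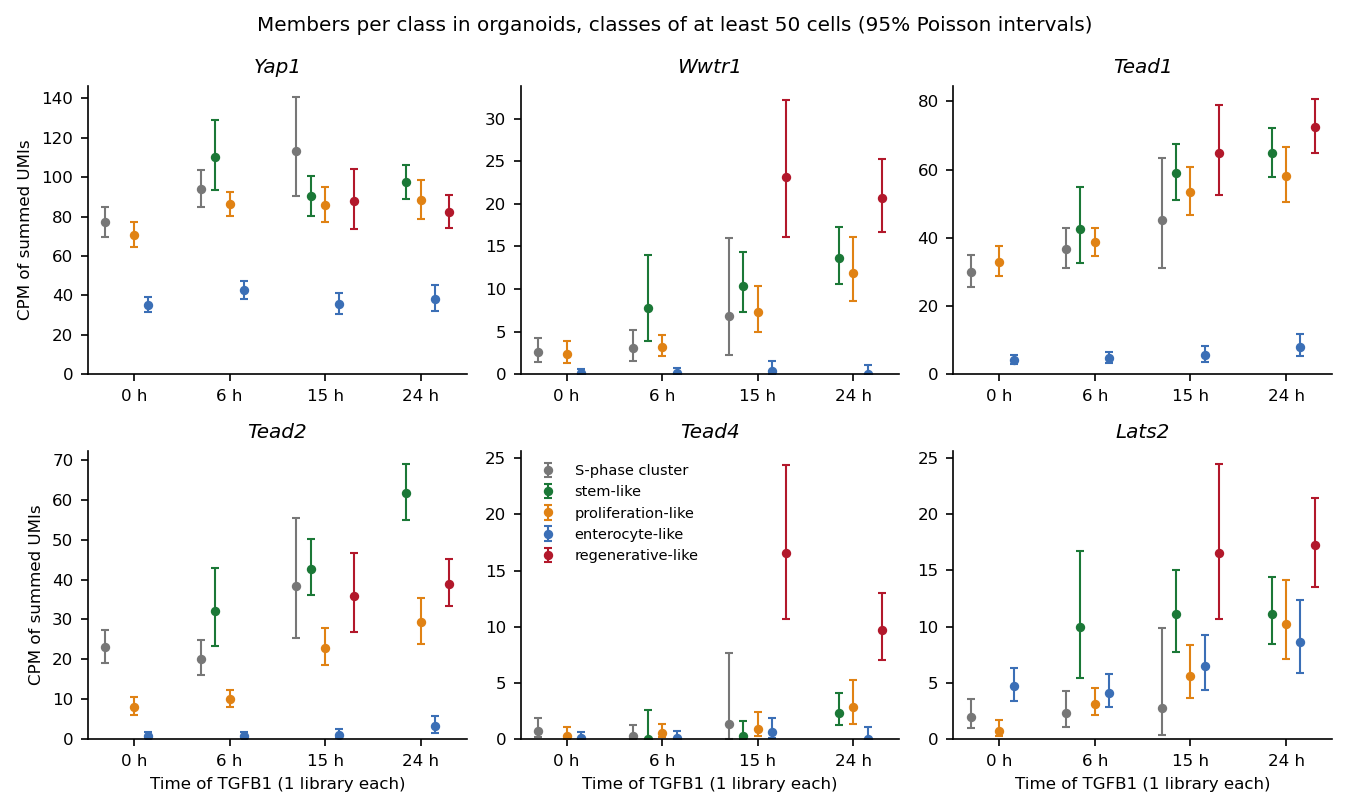
CPM of 6 members (y axis, 95% Poisson intervals) per named class of organoid cells, and in the cluster led by S-phase genes, at 0, 6, 15 and 24 h of TGFB1, for classes of at least 50 cells in a library. Enterocyte-like cells stay lowest for Wwtr1, Tead1 and Tead2, and Tead4 is highest in regenerative-like cells.

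In sorted Ki67-RFP crypt cells of mice, 7 members had a mean of at least 5 CPM over the 3 libraries. Of these, 2 were past 1.5-fold in both libraries irradiated 56 h before collection, Tead1 and Tead2, both higher. That count lay near the share of all genes, 30.1% (19.8% higher and 10.4% lower), so it does not set the members apart. At 2-fold the count was 1 (Tead1), and with 1 control library there is no test. Tead1 was 12.5 CPM in the non-irradiated library and 34.7 and 33.2 in the irradiated ones (2.78-fold, 2.41 to 3.22, and 2.66-fold, 2.30 to 3.10). Tead2 was 3.61 against 9.40 and 6.76 CPM, and it passed the minimum only through the irradiated libraries, so its place in the count is no support.

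Tead4 rested on 1 UMI without irradiation, against 38 and 62 after it, or 0.0388 against 2.77 and 5.02 CPM. The ratios of 71.3 and 129 had counting intervals of 12.0 to 2890 and 22.4 to 5190. Wwtr1 was 2.37 CPM (1.81 to 3.04) without irradiation and 4.81 (3.72 to 6.11) and 7.05 (5.64 to 8.69) after it, so it was higher in irradiated crypts, whereas irradiated vehicle organoids at D7 had less than non-irradiated ones. Lats2 rested on 8 UMIs against 24.5 and 30, or 0.311 against 1.78 and 2.43 CPM. Yap1 was 44.5, 59.5 and 59.6 CPM, Lats1 35.5, 39.7 and 38.9, Stk3 9.52, 13.1 and 11.3, Tead3 13.5, 12.6 and 12.2, and Vgll4 22.7, 28.0 and 20.8 CPM, each within 1.5-fold.

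The cells of the 3 libraries fell into different classes. Of the non-irradiated cells 37.8% were stem-like and 16.3% enterocyte-like, and 0 were regenerative-like. Of the irradiated cells 47.4 and 63.1% were regenerative-like and 0 stem-like, so the members could not be compared within one of these classes, and irradiation and class cannot be told apart. The 7 stem markers still summed to 1392 and 909 CPM in the irradiated libraries, against 2255 in the non-irradiated one. The regenerative-like cluster had 3 of its markers among its 10 leading genes (Ly6d, Anxa8, Slc4a11, Sprr1a, Anxa1, Clu and Il1rn, beside the small RNAs Gm25829, Gm23924 and 7SK). Regenerative-like cells held 3.31 (1.93 to 5.30) and 6.86 CPM (5.07 to 9.06) of Tead4 and 7.40 and 9.24 CPM of Wwtr1. The unnamed cells of the same libraries held 1.53 and 2.68 CPM of Tead4 and 3.45 and 4.24 CPM of Wwtr1, and stem-like cells of the non-irradiated library 0.102 and 3.36 CPM. Tead1 was 40.1 and 34.9 CPM in regenerative-like cells, 17.8 in non-irradiated stem-like cells and 3.78 in non-irradiated enterocyte-like cells. The 9 immune markers summed to 9.97, 14.3 and 10.4 CPM in the non-irradiated and the 2 irradiated libraries, the 4 endothelial markers to 6.26, 10.8 and 11.6 CPM and the 10 enterocyte markers to 4206, 803 and 2451 CPM. Their part in these differences was not tested.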

How the data were processed

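Bulk RNA-seq of 18 organoid libraries was deposited by the authors as 3 tables of FPKM, one per condition, and single-cell RNA-seq as 7 matrices of UMIs per cell. These are estimated counts as the authors deposited them, some fractional, used unrounded in sums and with no count model. The submitters' processing notes name TopHat2 2.1.0, Cuffnorm 2.2.1, Cuffdiff 2.2.1, STARsolo, STAR 2.7.10a, Salmon 1.4 and the builds mm9, GRCm39 and mm39 without roles. The sources used here do not state whether counting used strand.

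TGFB1 and vehicle were compared with limma 3.58.1 (R 4.3.3; trend, robust) on log2(FPKM + 1) for genes averaging 1 FPKM or more, with Benjamini-Hochberg adjustment over all genes. Interactions used the 12 libraries of both conditions. Ratios within a library had exact permutation tests. Levels between tables, which were normalized separately, were called at 2-fold with no overlap and not tested. Cells needed 500 UMIs, 250 genes and at most 20% mitochondrial UMIs. They were clustered with scanpy 1.11.5 (2000 variable genes, 30 components, 15 neighbours, leiden resolution 0.6), and a class needed 3 markers, a median marker fold of 2 and leading genes that did not go against its name. No doublet caller was run. Sums per library held 12340000 to 32430000 UMIs, and a fold of 1.5 was used among genes with a mean of at least 5 CPM over the libraries compared. Fits were tested on simulated data.

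The members and lists were chosen with earlier results of these data known. Named were all members, the 3 largest rises and falls among the other Hippo genes per contrast without overlap, 4 targets, and the 3 genes most like the member of each role with the largest change. One gene named by this rule is not reported here. Alternatives changed the pseudocount, filter, scaling, libraries, block, fold, cell filter and resolution. The 18 ATAC-seq peak lists were not used here.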

Additional observations from a re-analysis of the deposited data

Results flagged for a closer look

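These results are those in which the response to TGFB1 differed between conditions by the test of the difference itself (limma interaction, log2 scale). Of all genes 53.1% passed that test between irradiated and non-irradiated organoids and 64.5% between the days. With 5 of 10 members called in each, the counts do not set the members apart. Between irradiated and non-irradiated organoids at D7 the response of Wwtr1 was larger after irradiation by 1.55 (limma adjusted p 3.40e-09), of Lats2 by 0.78 (1.50e-05), of Tead2 by 0.57 (5.28e-05) and of Tead1 by 0.52 (0.000276). For Vgll4 the difference was −0.46 (1.99e-05), a larger fall after irradiation.

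Between D11 and D7 of irradiated organoids the response of Tead4 was larger at D11 by 0.61 (limma adjusted p 0.00643), of Lats1 by 0.28 (0.0276) and of Yap1 by 0.23 (0.0230). The Lats1 and Yap1 calls were each lost when certain single libraries were left out. With a pseudocount of 0.1 FPKM the Tead4 call was lost (limma adjusted p 0.0876). For Tead1 the difference was −0.53 (0.00293), a smaller rise at D11, and for Vgll4 it was 0.40 (0.00385), a smaller fall. Day and time since the end of the cytokine pulse cannot be told apart in this design. The vehicle and TGFB1 libraries of D7 IR enter both sets.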

How the results depend on the processing

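Of the counts of members called in bulk, 75 of 77 recomputed values stayed within 1.5 times. The day by TGFB1 count ranged from 3 to 5 when single libraries were left out. Single-member changes kept direction and call in 840 of 902 values, while 35 calls were lost, 9 gained and 18 turned sign. Those that turned sign were near 0: Lats1 in D7 non-IR (0.000152 with median-ratio scaling, −0.0337 to 0.0140 with libraries left out), Tead3 at D11 (−0.0609 to 0.0418) and in the day interaction (−0.0471 to 0.0556), and Stk3 in the day interaction (−0.000791 with median-ratio scaling, −0.00907 with quantile normalization, −0.0370 to 0.0534 with libraries left out). At 1.5-fold, 6 members passed between the D7 vehicle groups (beside 45.0% of all genes) and 3 between the days (24.9%), against 1 each at 2-fold (20.5% and 10.3%). With libraries left out these counts ranged from 1 to 2 and from 1 to 3. With 0.1 added to FPKM, the log2 difference of Wwtr1/Yap1 was 2.08 for TGFB1 in D7 IR, −3.51 for irradiation and 1.61 for D11 against D7. In single cells the 2-fold count was 0 at 15 h and 1 in the Ki67-RFP libraries. Class levels stayed within their counting intervals in 616 of 630 values.

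Same-numbered vehicle and TGFB1 libraries had correlations of −0.0856 to 0.213, and differently numbered ones −0.165 to 0.204. With 3 libraries per group these values cannot decide whether the numbers pair samples, and no label says that they do. A replicate block gave 8, 8 and 9 members called in the 3 conditions, and only Yap1 in D7 IR lost its call (0.13, limma adjusted p 0.0519). The irradiation interaction of Lats1 passed with median-ratio scaling (limma adjusted p 0.0380), quantile normalization (0.0284) and without D7 non-IR vehicle replicate 3 (0.0434), D7 IR vehicle replicate 1 (0.0436) or D7 IR TGFB1 replicate 3 (0.0343), and that of Yap1 without D7 IR TGFB1 replicate 3 (−0.18, 0.0166). The day interaction of Tead2 passed with quantile normalization (0.32, 0.0449). The cause of these shifts was not tested. Alternatives on peaks at member promoters were not run. With 1 library per time, or 1 control library, single-cell differences have no replicate check.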
